A study of Arabidopsis thaliana with 12 samples.

Results

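Genes of light-regulated carbon fixation were followed in the Arabidopsis thaliana toc120 mutant and in wild type (WT): PRK and SBPASE, which encode enzymes of the Calvin cycle, and AT2G04700 and NTRC, which encode plastid reductases that serve thioredoxins. They were taken as probes that the platform annotation assigns to 1 gene. Each of the 4 genes had 1 such probe and lay on 0 probes shared with other genes, out of 692 probes with 1 gene and 3439 probes in all. Total RNA was measured on 12 arrays, 6 of toc120 and 6 of WT, both of ecotype Columbia 0. The labels describe toc120 as a mutant with poor transfer of proteins through the chloroplast's outer envelope, and name neither its allele nor the tissue, age or growth of the plants. Whether the samples within a genotype are separate plants is not stated either, so p-values cover only the spread from array to array, which may be technical. The level of TOC120 itself, a receptor of that envelope, was not analysed here.

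The Calvin cycle fixes carbon dioxide in the chloroplast stroma. Phosphoribulokinase, the product of PRK, makes the carbon dioxide acceptor ribulose bisphosphate, and sedoheptulose bisphosphatase, the product of SBPASE, acts in the steps that regenerate that acceptor. Both enzymes carry cysteine pairs that are oxidised in the dark and reduced by thioredoxin in the light. Ferredoxin-thioredoxin reductase, of which AT2G04700 encodes a subunit, passes electrons from photosynthetic ferredoxin to the thioredoxins, whereas NTRC, a reductase joined to a thioredoxin domain in 1 protein, draws them from NADPH. All 4 proteins are encoded in the nucleus and imported into the plastid.

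Values were probe intensities in arbitrary units. Array totals as deposited lay at 2688 to 3686 in toc120 and at 2641 to 3553 in WT, and array medians at 0.188 to 0.278 in toc120 and 0.151 to 0.157 in WT. The typical probe was therefore brighter in the mutant before any scaling, with a median log2 change over all probes of 0.23. After quantile normalisation, which gives each array the same distribution of values, this median was 0. It was -0.04 with the lower quartile of probes by level left out. Changes below are on the quantile-normalised scale, as log2(intensity + 0.0261), unless another is named. Scaling bears on these genes, so the intensities as deposited are given beside the normalised ones. Of the calls over all probes, 46.3% were higher in toc120 after quantile normalisation and 74.4% as deposited. Within a genotype, array 1 resembled 2, 3 resembled 4 and 5 resembled 6, with Spearman's rho across probes of 0.952 to 0.975, beside 0.91 to 0.946 for its remaining array pairs. The labels do not call them duplicates, and each call is given over the 12 arrays and again with neighbours averaged, which leaves 3 pair means per genotype.

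Over the 12 arrays, 3 of the 4 genes were lower in toc120: AT2G04700 by 1.63-fold, PRK by 1.32-fold and NTRC by 1.29-fold (limma, Benjamini-Hochberg adjusted over all probes, threshold 0.05). In the same fit 24.8% of all probes were called lower and 46.1% were called in either direction. With neighbours averaged, 0 of the 4 passed, while 31.5% of all probes did. At an unadjusted p under 0.05 that limma fit held 2 of the 4, PRK and AT2G04700, and 41.9% of all probes. With the intensities as deposited 0 of the 4 passed, against 45.5% of all probes, and 0 of the 4 had an unadjusted limma p under 0.05, against 51.3%. Under a scaling to equal array medians PRK and AT2G04700 passed over the 12 arrays (46.2% of all probes), and neither did with neighbours averaged (limma adjusted p of 0.0621 and 0.0575). SBPASE, with all WT arrays at 0, gave no call. In such RNA extracts fewer cells of a type and less RNA per cell cannot be told apart.

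**Figure D1:**
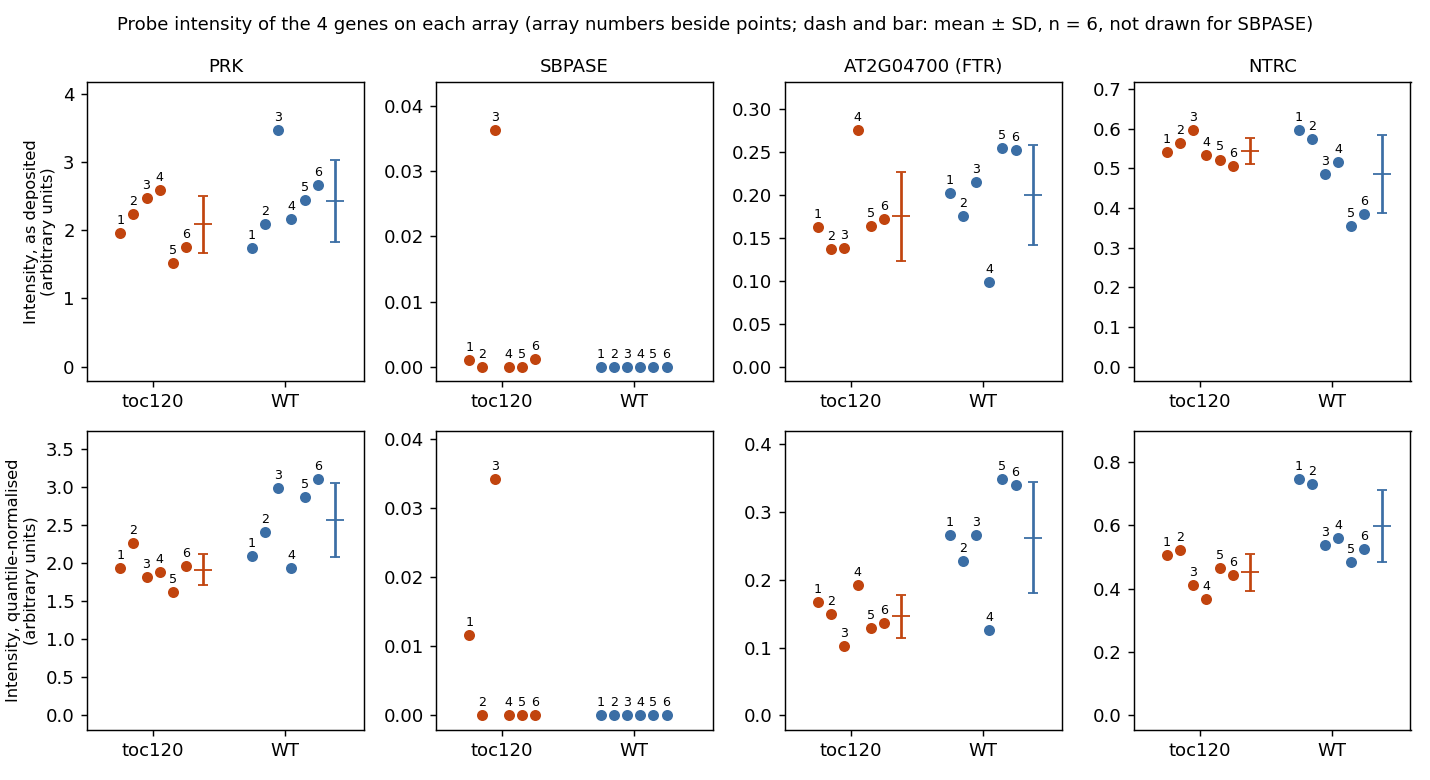
Probe intensity (arbitrary units, vertical axes include 0) of PRK, SBPASE, AT2G04700 (FTR, a ferredoxin-thioredoxin reductase subunit) and NTRC on the 6 toc120 and 6 WT arrays, as deposited in the top row and quantile-normalised in the bottom row. Points are arrays with their numbers, and dashes with bars are means ± SD (n = 6), not drawn for SBPASE. After normalisation 3 toc120 arrays lie below every WT array for PRK, 4 for NTRC and 1 for AT2G04700, whereas as deposited this holds for 1, 0 and 0.

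PRK was measured above 0 on every array. As deposited, its intensity had a lowest value of 1.52, a median of 2.1 and a highest value of 2.59 on the toc120 arrays, against 1.74, 2.30 and 3.47 on the WT arrays. The ranges overlapped, with toc120 5 alone below all WT arrays and WT 3 above all others. The means were 2.09 ± 0.418 in toc120 and 2.43 ± 0.60 in WT (SD, n = 6 each).

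After quantile normalisation PRK ran from 1.63 over a median of 1.91 to 2.27 in toc120 and from 1.94 over 2.64 to 3.12 in WT. The mutant arrays were closer together than the WT arrays, as they were before normalisation, and WT 1 and WT 4 lay within their range. The log2 change was -0.40 (SE 0.13, 95% interval -0.68 to -0.12, limma adjusted p = 0.0232 over the 12 arrays and 0.0826 with neighbours averaged). It was negative between all 6 arrays of equal number, yet unevenly so: the averages were -0.10 for numbers 1 and 2, -0.37 for 3 and 4 and -0.73 for 5 and 6. Without numbers 5 and 6 in both genotypes the change was -0.24 (limma adjusted p = 0.253). Equal numbers appear to pair the arrays, and with the number as a block PRK did not pass either (limma adjusted p = 0.0549). As deposited the change was -0.21 (95% interval -0.60 to 0.18), with toc120 lower for 3 of the 6 numbers, and with equal array medians it was -0.80.

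The rank of the PRK probe among all probes of an array needs no scale factor, but quantile normalisation assigns values by this rank. The percentile of a probe within an array, here and below, therefore restates its normalised value and is no separate check. The PRK probe stood at the 93.6 ± 0.737 percentile in toc120 and the 95.2 ± 1.03 percentile in WT (SD, n = 6 each), that is among the brightest probes of both genotypes. Probes of that brightness moved under some scalings: in the top 10th of probes by mean level, the median log2 change was -0.10 as deposited, -0.07 after quantile normalisation and -0.69 with equal medians. PRK lay at percentile 37.3 of the changes in that class after quantile normalisation and at 42.3 under the other scalings. These classes were set after results had been seen and are a description.

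SBPASE, the other Calvin cycle enzyme gene, was listed at 0 on 6 of 6 WT arrays and on 3 of 6 toc120 arrays. The toc120 arrays above 0 were number 1 at a deposited intensity of 0.000986, number 3 at 0.0364 and number 6 at 0.00111. Only number 3 exceeded the constant added before taking logs. An exact 0 can be a failed estimate, and between 11.8% and 17.3% of an array's probes were at 0, so no fold is given. The fitted log2 change was 0.29 (SE 0.20, limma adjusted p = 0.262), and 0.11 without toc120 3. No statement on the level of SBPASE mRNA follows from this probe in either genotype.

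AT2G04700, the ferredoxin-thioredoxin reductase subunit, showed the largest fitted change of the 4 after quantile normalisation, but the smallest as deposited, and a smaller one than PRK with equal array medians. Its deposited intensity had a lowest value of 0.137, a median of 0.163 and a highest value of 0.276 in toc120, against 0.0979, 0.208 and 0.254 in WT. The extremes came from the same number: toc120 4 was the highest of all 12 arrays and WT 4 the lowest. Apart from these 2 arrays, the toc120 values ended at 0.172 and the WT values began at 0.175. The 2 were set apart after the values were seen, and over all 12 arrays the ranges overlapped.

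After quantile normalisation AT2G04700 was at 0.146 ± 0.0317 in toc120 and 0.262 ± 0.0817 in WT (SD, n = 6 each), with ranges of 0.102 to 0.193 and 0.126 to 0.349. The log2 change was -0.70 (SE 0.22, 95% interval -1.18 to -0.23, limma adjusted p = 0.0191 over the 12 arrays and 0.0751 with neighbours averaged). Toc120 was lower for 5 of the 6 numbers, by 0.53 to 1.28 on the log2 scale, and higher by 0.53 for number 4. Without WT 4 the change was -0.87 (limma adjusted p = 0.00087). Without numbers 5 and 6 in both genotypes it was -0.47 (limma adjusted p = 0.241), and without numbers 1 and 2 it was -0.77 (limma adjusted p = 0.0985), so that the call was lost in both cases. With the number as a block the call was lost (limma adjusted p = 0.0692). As deposited the change was -0.15 (95% interval -0.62 to 0.32), and with equal array medians it was -0.67 (limma adjusted p = 0.0191 over the 12 arrays). Its probe stood at the 41.8 ± 5.6 percentile of an array in toc120 and the 57.5 ± 10.5 percentile in WT (SD, n = 6 each). Among the 344 probes of like mean level it lay between percentile 24.7 and 27.0 of the changes under all 4 scalings.

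NTRC, the NADPH-dependent reductase, was the gene whose direction turned with the scaling. As deposited it varied least of the 3 genes measured above 0 within toc120, with a coefficient of variation of 6.02%, against 20.2% in WT. Its deposited intensity had a lowest value of 0.506, a median of 0.537 and a highest value of 0.598 in toc120, against 0.355, 0.502 and 0.596 in WT. The WT arrays fell into neighbouring pairs, with means of 0.585 for numbers 1 and 2, 0.502 for 3 and 4 and 0.370 for 5 and 6, while the toc120 pairs lay at 0.553, 0.565 and 0.514. The deposited change was 0.18 (95% interval -0.09 to 0.44, limma adjusted p = 0.268), with toc120 higher for 4 of the 6 numbers.

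After quantile normalisation NTRC was at 0.452 ± 0.0586 in toc120 and 0.597 ± 0.113 in WT (SD, n = 6 each), and 4 of the 6 toc120 arrays lay below every WT array. The log2 change was -0.37 (SE 0.12, 95% interval -0.64 to -0.10, limma adjusted p = 0.0281 over the 12 arrays). It was negative for all 6 numbers, from -0.06 to -0.58, and the blocked fit passed (limma adjusted p = 0.00981). With neighbours averaged it did not pass (limma adjusted p = 0.203, and 0.102 with the number pair as a block). Neighbouring arrays of a genotype differed in NTRC by a median of 0.06 on the log2 scale and other arrays of a genotype by 0.30. The corresponding medians were 0.21 and 0.25 for PRK and 0.17 and 0.35 for AT2G04700. The call over the 12 arrays was lost without WT 1, WT 2, toc120 3 or toc120 4 (limma adjusted p from 0.0561 to 0.0602). The NTRC probe stood at the 73.4 ± 3.23 percentile in toc120 and the 79.2 ± 3.38 percentile in WT (SD, n = 6 each), and at percentile 37.5 to 38.1 of the changes among the 344 probes of like level.

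**Figure D2:**
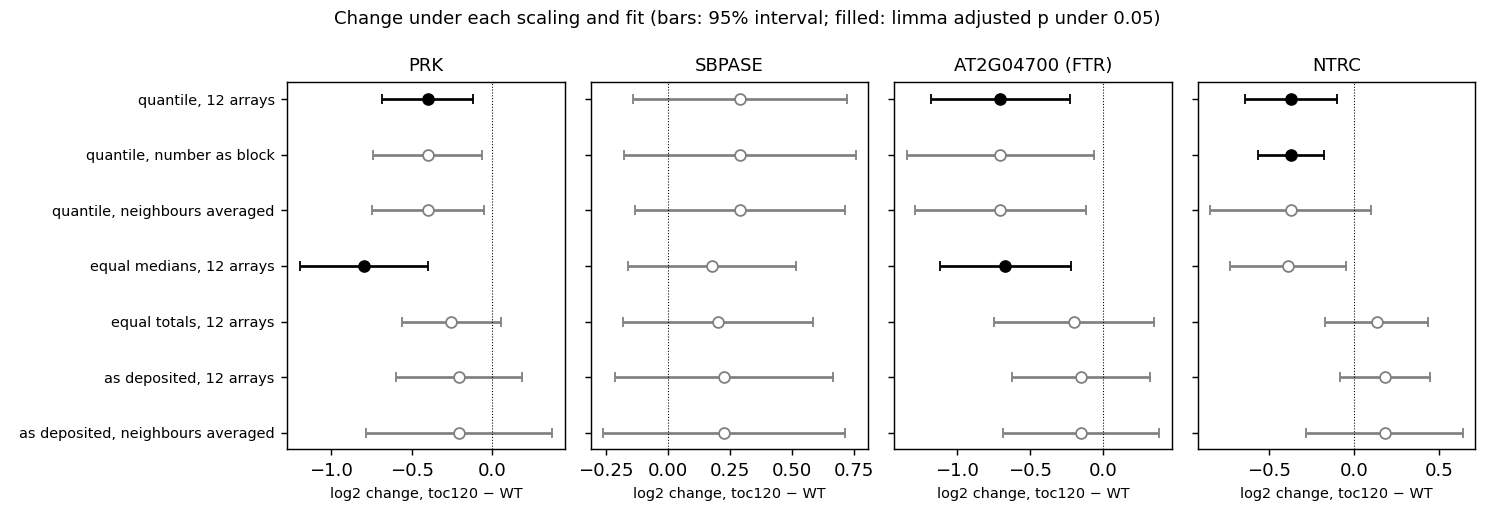
Log2 change, toc120 minus WT (horizontal axes), of the 4 genes under 7 combinations of scaling and fit, with bars for the 95% interval and filled points for a limma adjusted p under 0.05. PRK and AT2G04700 are below 0 in every row, and filled in the 12-array fits without a block after quantile normalisation and with equal medians; NTRC is at -0.37 after quantile normalisation and at 0.18 as deposited; the SBPASE interval spans 0 throughout.

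Apart from the constant added before taking logs, a factor that scales a whole array cancels in the difference between 2 genes of the same array. Such differences were compared for the 3 genes measured above 0 everywhere, which makes 3 pairs. Exact two-sided permutation tests were run over the 12 arrays on deposited log2 values, with Benjamini-Hochberg adjustment over the pairs. A shift that varies with brightness does not cancel. As deposited, the median log2 change was -0.10 among probes at the level of PRK, 0.31 at that of AT2G04700 and 0.47 at that of NTRC. These differences are therefore not free of scaling. PRK over AT2G04700 averaged 3.40 ± 0.377 in toc120 and 3.46 ± 0.453 in WT (SD, n = 6 each), a difference of -0.06 (exact permutation adjusted p = 0.788). The 3 number pairs gave 0.42, -0.48 and -0.11, so that no common direction was seen.

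PRK over NTRC averaged 1.87 ± 0.249 in toc120 and 2.25 ± 0.543 in WT, a difference of -0.38 (exact permutation p = 0.13, adjusted p = 0.39, n = 6 each). It was 0.21, -0.28 and -1.08 in the 3 number pairs, with WT 3, 5 and 6 above all toc120 arrays. AT2G04700 over NTRC averaged -1.54 ± 0.371 in toc120 and -1.21 ± 0.64 in WT, a difference of -0.33 (exact permutation p = 0.292, adjusted p = 0.438, n = 6 each), and was lower in toc120 for 5 of the 6 numbers. On quantile-normalised values the 3 differences were 0.30 for PRK over AT2G04700, -0.03 for PRK over NTRC and -0.33 for AT2G04700 over NTRC (exact permutation adjusted p of 0.292, 0.885 and 0.386). Thus 0 of the 3 differences exceeded the spread between arrays. This does not show that the genes changed alike, since the number pairs differed from each other by up to 1.29 on the log2 scale. With neighbours averaged the smallest p that 3 against 3 allows is 0.1, and the exact permutation p-values were 0.3 to 0.8.

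**Figure D3:**
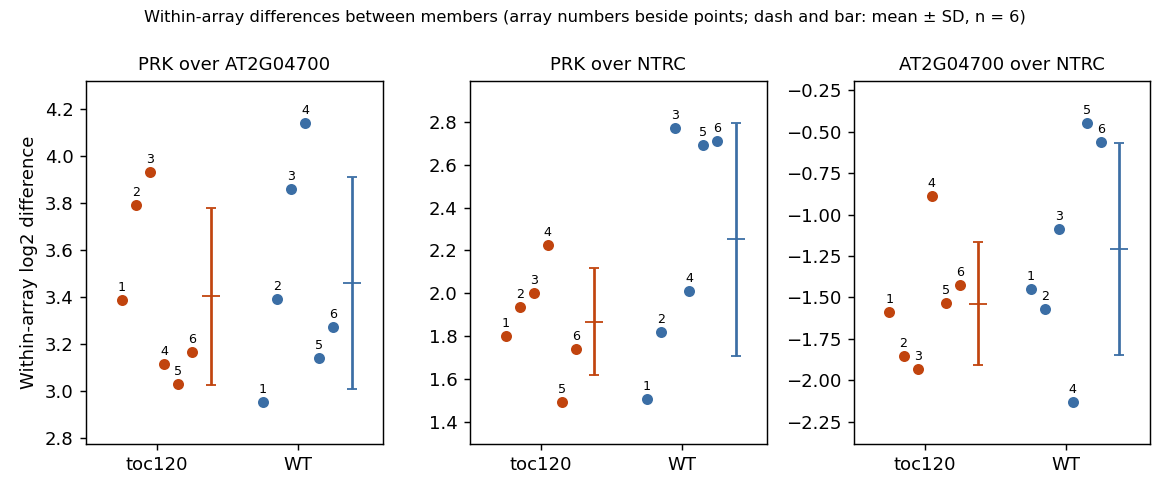
Within-array log2 differences (vertical axes) of PRK over AT2G04700, PRK over NTRC and AT2G04700 over NTRC on the 6 toc120 and 6 WT arrays, with array numbers beside the points and dashes with bars for mean ± SD (n = 6). The genotypes overlap in every panel, and WT 3, 5 and 6 lie above all toc120 arrays for PRK over NTRC.

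Across the 12 arrays the normalised log2 values of PRK and AT2G04700 followed each other. Their Pearson r was 0.84 (Spearman's rho 0.80), and each was the gene most like the other among the 494 other 1-gene probes above 0 on every array. The arrays form 2 genotypes and neighbouring numbers, so they are not 12 independent points, and r is a description. Within WT r was 0.79 and within toc120 0.32 (n = 6 arrays each). As deposited the value over the 12 arrays was 0.35. For NTRC with PRK, r was 0.31 over the 12 arrays, 0.40 within toc120 and -0.59 within WT, and as deposited it was -0.35, 0.65 and -0.50. Within toc120, r with PRK was thus higher for NTRC than for AT2G04700, which as deposited was at 0.26 there. For NTRC with AT2G04700, r was 0.38 over the 12 arrays, -0.06 within toc120 and -0.24 within WT, and -0.53 over the 12 arrays as deposited.

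Other genes near PRK and AT2G04700 over the 12 arrays were AT2G46910, with r of 0.78 to PRK and 0.83 to AT2G04700, AT3G26630 with 0.78 to PRK, and AT1G49870 with 0.83 to AT2G04700. The genes closest to NTRC were AT4G29890 (r = 0.93), IQD22 (0.90) and AT1G74070 (0.90). With the genotype means subtracted, AT2G23070, which the gene table names as the plastid casein kinase subunit CKA4, was closest to PRK (r = 0.91) and second to AT2G04700 (0.76). AT4G30740 (0.68) and AT2G04700 (0.68) were next for PRK, and AT3G50350 (0.79) and AT4G21170 (0.75) were the others for AT2G04700. For NTRC they were AT2G39360 (0.93), AT4G29890 (0.93) and AT5G35100 (0.87).

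**Figure D4:**
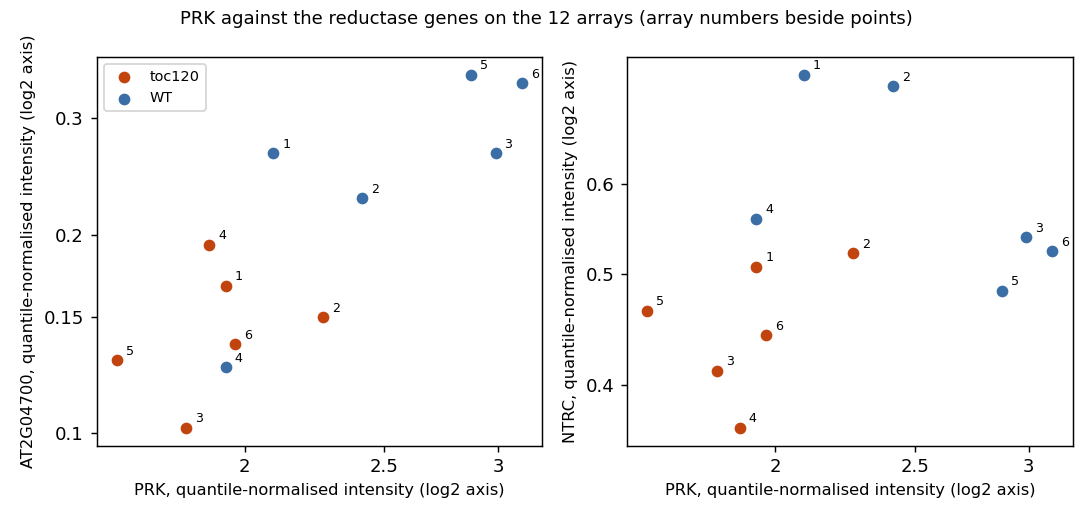
Quantile-normalised intensity (log2 axes, arbitrary units) of AT2G04700 in the left panel and NTRC in the right panel against PRK, with 1 numbered point per array, toc120 and WT in separate colours. AT2G04700 goes up with PRK over the 12 arrays (r = 0.84), most clearly among the WT arrays, while NTRC is highest on WT 1 and 2, where PRK is not.

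The wider pathway was searched with lists of Calvin cycle enzymes (21 loci), their regulators and Rubisco assembly factors (11), plastid thioredoxins and reductases (21), ferredoxins and peroxiredoxins (9), other plastid enzymes under thioredoxin control (11) and the thioredoxin system of cytosol and mitochondria (12). Of these, 8 loci had a 1-gene probe: the 4 genes above and 4 others. Over the 12 arrays 3 of the 8 were lower, 1 was higher and 4 did not pass, against 24.8% and 21.4% of all probes called lower and higher. The 3 lower genes were PRK, AT2G04700 and NTRC, and none of the 4 others was called lower. After quantile normalisation the median log2 change of the 8 was -0.14, beside 0 for all probes and -0.04 with the lower quartile of probes left out. The median of the 8 counts SBPASE and was not taken under the other scalings. With neighbours averaged 1 of the 8 passed, against 31.5% of all probes. A further 9 listed loci sat on probes that stand for several genes, and they are not named. None of the thioredoxins, the nuclear Rubisco subunits, GAPA, GAPB, the aldolases or the transketolases had a 1-gene probe here. The labels name no tissue, and 0 of 9 root, 0 of 8 seed and 0 of 6 flower marker loci had one, so that the organ sampled was not checked.

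AT5G58330, the gene of NADP-dependent malate dehydrogenase, was the gene that rose. This enzyme exports reducing power from the chloroplast as malate and, like PRK and SBPASE, is switched on by thioredoxin in the light. Its deposited intensity had a lowest value of 0.424, a median of 0.544 and a highest value of 0.844 in toc120, against 0.154, 0.168 and 0.192 in WT. Every toc120 array lay above every WT array. After quantile normalisation it was at 0.476 ± 0.086 in toc120 and 0.215 ± 0.0175 in WT (SD, n = 6 each), a 2.07-fold rise. The rise was 2.09-fold with equal array medians and 3.05-fold as deposited.

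The log2 change of AT5G58330 was 1.05 (SE 0.11, limma adjusted p = 1.31e-05 over the 12 arrays and 0.00731 with neighbours averaged). It was positive for all 6 numbers, and the number pairs gave 1.19, 1.18 and 0.77. The call held under all 26 alternative settings run, with limma adjusted p-values from 1.77e-07 to 0.0251. The lowest fold was 1.57, with 0.24 in place of 0.0261 as the constant. In the averaged fit 14.6% of all probes were called higher.

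The remaining measured genes of the lists gave no call over the 12 arrays. AT3G47650, listed as BSD2, a chaperone of Rubisco assembly, was at 1.59 ± 0.209 in toc120 and 1.86 ± 0.295 in WT (SD, n = 6 each), a log2 change of -0.23 (limma adjusted p = 0.143). It was at 0.06 as deposited and, the only 1 of the 26 alternatives that passed, at -0.53 with equal array medians (limma adjusted p = 0.0277 over the 12 arrays and 0.202 with neighbours averaged). AT3G52960, listed as the plastid peroxiredoxin PRXIIE, was dim, at 0.0668 ± 0.0436 in toc120 and 0.0601 ± 0.0208 in WT, with toc120 2 at 0. Its log2 change was -0.05 (SE 0.39, limma adjusted p = 0.962).

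CHLM, a methyltransferase of chlorophyll synthesis that is held active by thioredoxin, was at 0.435 ± 0.0489 in toc120 and 0.428 ± 0.0373 in WT after quantile normalisation (SD, n = 6 each). The log2 change was 0.02 (95% interval -0.16 to 0.19). As deposited it was 0.525 ± 0.0638 in toc120 and 0.339 ± 0.0603 in WT with no overlap between the genotypes. That change was 0.60 (limma adjusted p = 0.00123 over the 12 arrays). On that scale the median change was 0.23 over all probes, but 0.47 among probes at the level of NTRC, whose ranks overlapped those of CHLM. With neighbours averaged the deposited call was lost (limma adjusted p = 0.0542). CHLM also passed with equal array totals, at 0.56 (limma adjusted p = 0.000328 over the 12 arrays). Neighbours were not averaged under that scaling.

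**Figure D5:**
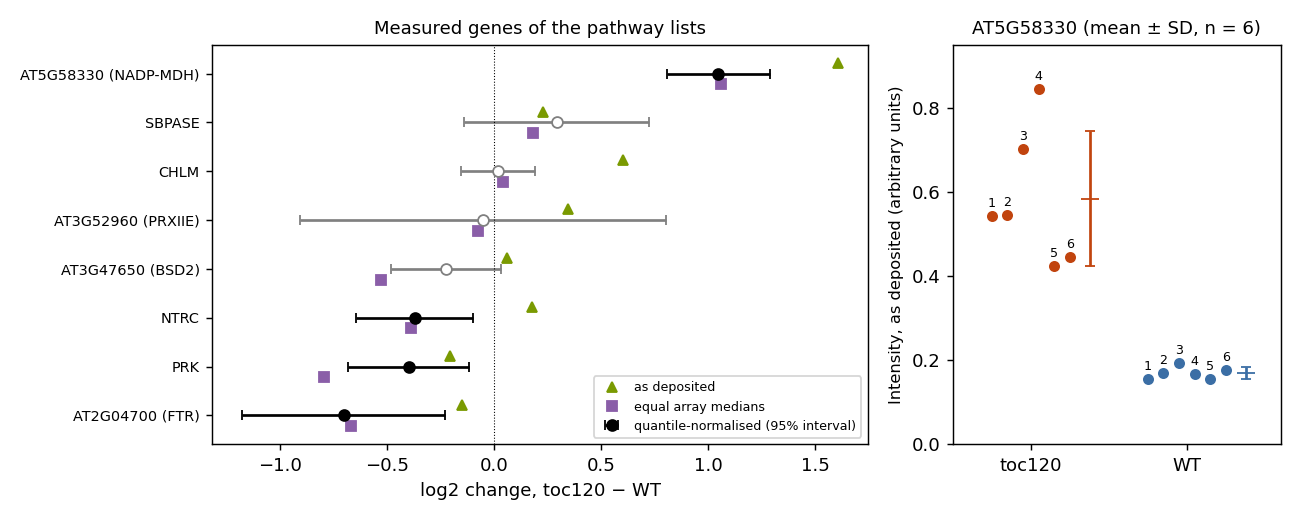
Left, log2 change (toc120 minus WT, horizontal axis) of the 8 measured genes of the pathway lists, quantile-normalised with 95% intervals (filled where the limma adjusted p is under 0.05), as deposited (triangles) and with equal array medians (squares). Right, deposited intensity of AT5G58330, NADP-dependent malate dehydrogenase, on each numbered array with mean ± SD (n = 6): the 6 toc120 arrays lie between 0.424 and 0.844, all above the WT arrays.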

How the data were processed

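Total RNA of 6 toc120 and 6 WT samples was measured on 12 arrays. The values are the probe intensities the authors deposited, in 1 table of 3439 probes on a linear scale with exact zeros. How they were background-corrected and scaled, and the array type, is not given in the sources used here. Precision is limited by the number of arrays. Gene names come from the platform annotation, matched by gene ID to the TAIR 10.1 table: 692 have 1 gene (690 matched a locus), 870 several and 1877 none. No coordinates are given, because the build behind the probes is not known.

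Array totals differed up to 1.4-fold and medians up to 1.84-fold, so intensities were quantile-normalised and taken as log2(value + 0.0261), the 5th percentile of the positive values, which understates changes of dim probes. The test was limma's two-sided moderated test (version 3.58.1, R 4.3.3), adjusted over 3439 probes, with scipy 1.17.1 in Python 3.11.15 for differences between genes. Figures used matplotlib 3.10.9. The fit was also run on simulated data, but no result of that run is given here. It is therefore no check on the calls, least of all where neighbouring arrays are alike.

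Genotypes share the numbers 1 to 6. Deviations from the genotype mean correlated between equal numbers (r of 0.22 to 0.35 over the probes), and each of the 12 arrays was closest, in the other genotype, to its own number. The numbers therefore appear to pair the arrays, although no label says so. Alternatives were 3 other scalings, a larger constant, a filter on dim probes, the number as a block, neighbours averaged or as a random block, and each array or number pair left out. Genes named are the 4 genes, every listed locus with a 1-gene probe, and the 3 genes most like each gene above 0 on all arrays, with and without genotype means. The genes and lists were chosen with earlier results of these data known. AT5G58330 was put through the alternatives after its value was seen.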

Additional observations from a re-analysis of the deposited data

Results flagged for a closer look

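In groups of 6 arrays, a value was marked where its gap to the nearest other array exceeded Dixon's critical share of the group's range for that size. Of 46 groups tested, 3 were marked, and chance marks about 1 in 20. SBPASE on toc120 3 was at 0.0364 as deposited, where the rest of the genotype ran from 0 to 0.00111. After quantile normalisation it was at 0.0343, beside 0 to 0.0117. AT2G04700 on toc120 4 was at 0.2756 as deposited, against 0.137 to 0.172 on the other toc120 arrays. After quantile normalisation that array was at 0.193 and was not marked, and without it the log2 change of AT2G04700 was -0.77 (limma adjusted p = 0.0168), against -0.70 with it.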

How the results depend on the processing

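PRK and AT2G04700 stayed lower in toc120 under all 26 alternatives run, and passed under 14 and 16 of them. These are not 26 separate checks, since 15 refit the same model with arrays left out. Blocking, averaging or filtering leaves the estimate of a scaling unchanged, so its sign was fixed there. Neither of these 2 genes passed in a fit that blocks or averages. NTRC was lower and passed under 14 of 26. Scaling: as deposited, with or without averaging, the log2 changes were -0.21 for PRK, -0.15 for AT2G04700 and 0.18 for NTRC, and with equal array totals -0.25, -0.20 and 0.13, none past the threshold; with equal medians NTRC was at -0.39 and did not pass. Replicate pairing and neighbours: with the number as a replicate block PRK (-0.40) and AT2G04700 (-0.70) did not pass, nor with neighbours as a random block. NTRC (-0.37) passed in both of these fits (limma adjusted p = 0.00981 and 0.0431). With neighbours averaged none passed: -0.40, -0.70 and -0.37 with or without the number pair as a block, and -0.80, -0.67 and -0.39 with equal medians. Leaving out single arrays gave -0.46 to -0.34 for PRK, -0.87 to -0.61 for AT2G04700, -0.42 to -0.30 for NTRC and 0.11 to 0.36 for SBPASE. PRK lost its call without toc120 5 or WT 3, and without numbers 3 and 4 (-0.42) or 5 and 6 (-0.24). AT2G04700 lost it without numbers 1 and 2 (-0.77) or 5 and 6 (-0.47), and NTRC, beside the arrays named above, without numbers 3 and 4 (-0.31). Over these the ranges were -0.55 to -0.24, -0.87 to -0.47 and -0.51 to -0.30. SBPASE never passed and was removed by the filter on dim probes. After quantile normalisation PRK over AT2G04700 turned to 0.30 and PRK over NTRC shrank to -0.03. With single arrays left out PRK over AT2G04700 ran from -0.16 to 0.081, PRK over NTRC from -0.53 to -0.28 and AT2G04700 over NTRC from -0.51 to -0.18; no difference between genes passed under any setting. Calls over all probes numbered 1587, against 979 in the averaged fit that blocks on number pairs, 899 averaged as deposited, 912 averaged with equal medians, and 1294 to 1589 with arrays left out. Averaging and leaving out reduce the number of arrays; the cause of the other changes was not tested. No signal over background is known for these probes.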
